A study of Homo sapiens with 9 samples.

Results

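SLC15A2, LIFR, TM4SF1, SPOCK1, C1orf116 and PART1 are 6 genes listed together because androgen raised them in a prostate cancer line and the addition of celastrol lowered them again. All 6 were found among the 12165 genes of the array, through 13 of its 22215 probe sets, and no filter on low values was used. The members were thus chosen on both treatment contrasts of these same arrays, so that their rises and falls are described here and not tested. LNCaP is an established human prostate cancer cell line, derived from a metastasis, that keeps features of the luminal secretory cells of the prostate and responds to androgen. All cultures were first kept for 2 days in medium with charcoal-stripped serum, which holds little steroid hormone. Vehicle cultures then received ethanol and DMSO, androgen cultures received 1 nM of the synthetic, non-metabolizable androgen R1881 with DMSO, and the third group received 1 nM R1881 together with 1.25 µM celastrol, a plant triterpenoid. Each group holds 3 arrays called biological replicates, with no further word on how the cultures were separated, and no arm with celastrol and no hormone was analysed here. Treatment lasted 24 h in the vehicle and combined groups, while for the androgen group the treatment protocol gives 24 h and the titles 6 h, a conflict that bears on every value of that group.

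Androgen enters the cell and binds a nuclear receptor, which then binds DNA and recruits coactivators to raise transcription of its target genes. Ligand-free receptor is kept ready to bind hormone by HSP90 and its co-chaperones, and celastrol is known as a compound that disturbs this chaperone system and triggers stress responses. In the luminal prostate cell many of the induced genes encode secreted or membrane proteins. Of the 6 genes described here, SLC15A2 encodes a proton-coupled transporter of small peptides, LIFR a cytokine receptor, TM4SF1 a small membrane protein of the L6 family, SPOCK1 a secreted proteoglycan, C1orf116 a protein of little known function also called SARG, for specifically androgen-regulated gene, and PART1 a long non-coding RNA, the prostate androgen-regulated transcript.

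The values are RMA intensities on a linear scale. Where a gene has several probe sets, the one whose log2 values average highest stands for it, and log2 differences are given with the standard error of a limma fit to all 9 arrays (3 per group). Median intensity lay between 72.2 and 80.2 over the arrays. Vehicle array 3 deviated most from its group, with a standard deviation over genes of 0.31 on the log2 scale against 0.12 to 0.20 on the other arrays. Of 8 luminal markers, 6 were measured and their summed intensity lay between 27044 and 28032 in vehicle, 44770 and 47931 in androgen, and 35218 and 38238 in the combined group. In contrast, the markers measured for basal (4), fibroblast (6), endothelial (6) and leukocyte (4) cells summed to at most 392.7 on any array. The pan-leukocyte gene PTPRC and the endothelial gene PECAM1 had group means between 29.9 and 39.0, near the lower quartile of all values in the table (36.4). Other markers of these lists lay higher and differed between groups. Endothelial VWF went from 112.9 in vehicle to 51.7 with androgen, and TEK from 81.9 to 58.4. Basal DST went from 130.2 with androgen to 237.5 with both agents. The luminal sums moved with the treatments, but their members moved apart. With androgen KLK3, KRT8, KRT18 and TMPRSS2 rose, and KLK3 and TMPRSS2 are themselves classical androgen-induced genes. FOLH1 instead went from a mean of 15351 to 10792 and HOXB13 from 1909 to 1419. The sums are thus no measure of luminal content, and the part of this shift in the results below was not tested. In RNA from whole cultures, fewer cells expressing a gene and less RNA per cell cannot be told apart.

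All 6 genes had their highest values with androgen alone, and the androgen arrays lay above every vehicle array and above every array of the combined treatment. Over all genes, 14.1% had androgen arrays that lay wholly above the vehicle arrays, and 15.5% had combined arrays that lay wholly below the androgen arrays, but the members were chosen for that pattern and nothing is read from their count. That no member had combined arrays wholly above the androgen arrays, as 20.4% of all genes did, follows from the same choice. Both contrasts use the same 3 androgen arrays with opposite sign, so that a high value there enlarges the rise and the fall together. Where the genes differed was in how far they came back. The share of the androgen response that was lost is the fall with celastrol divided by the rise with androgen, both in log2, so that 100% is the vehicle level. By the probe set that stands for each gene, the share was close to 100% in C1orf116, SPOCK1 and PART1. It was above 100% in TM4SF1 and well short of it in SLC15A2 and LIFR.

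**Figure D1:**
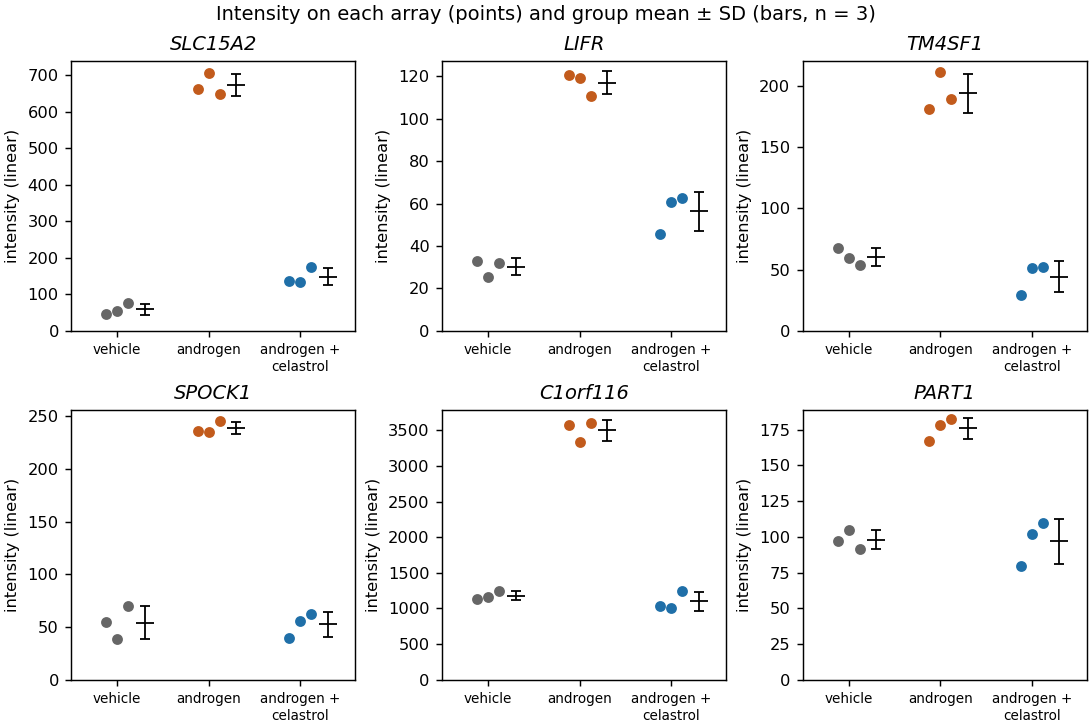
Intensity on a linear scale (vertical axis) of the 6 genes on each of the 9 arrays, with the group mean and SD (n = 3) beside the points, for vehicle, androgen, and androgen plus celastrol. In each panel the 3 androgen arrays lie above the other 6, and in SLC15A2 and LIFR the combined arrays also lie above the vehicle arrays.

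SLC15A2, also known as PEPT2, takes up dipeptides and tripeptides together with protons and is best known from the kidney tubule. On the 3 vehicle arrays its intensity was 46.1, 54.1 and 75.6, on the androgen arrays 664, 706 and 650, and on the combined arrays 136.5, 133.0 and 174. No groups overlapped, and the order was vehicle, combined, androgen. Over all genes, 20.1% had combined arrays wholly above the vehicle arrays, as SLC15A2 and LIFR did. The rise with androgen was 3.55 ± 0.18 on the log2 scale, or 11.7-fold, and the change with celastrol was -2.20 ± 0.18. Cells with both agents remained 1.35 ± 0.18 above vehicle, or 2.56-fold, so that 61.9% ± 4.4 (SE) of the log2 response was lost. On the linear scale, with group means of 58.6 ± 15.3, 673 ± 29.1 and 148 ± 22.7 (SD, n = 3), the loss was 85.5% of the gained intensity. The second probe set, 205317_s_at, showed the same order, with means of 30.7 ± 2.62, 105 ± 11.7 and 44.0 ± 4.12 (SD, n = 3) and a loss of 70.8% ± 5.9. SLC15A2 lies on chromosome 3 (GRCh38.p14, chr3:121894401-121944188). The 250 bases before and 50 after its RefSeq start are printed because they hold no CG pair at all and the steroid receptor hexamer AGAACA on the opposite strand, shown in capitals as TGTTCT at position -247 relative to the start:
SLC15A2 promoter, chr3:121894151-121894450, plus strand: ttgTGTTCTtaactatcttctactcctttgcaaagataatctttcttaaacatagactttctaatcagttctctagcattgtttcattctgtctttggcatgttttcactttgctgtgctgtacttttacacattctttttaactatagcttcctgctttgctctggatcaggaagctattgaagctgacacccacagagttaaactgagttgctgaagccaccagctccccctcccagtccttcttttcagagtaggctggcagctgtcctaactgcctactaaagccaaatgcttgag

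Of 14 measured genes of peptide transport and cleavage, 2 rose with androgen and none fell, against 7.17% and 5.84% of all genes, and none passed with celastrol, against 9.0% up and 7.24% down. The list's median changes were -0.07 and -0.01, beside -0.04 and 0.02 over all genes. The paralogues SLC15A1 (0.02 ± 0.18 with androgen, adjusted p = 0.963 in limma) and SLC15A3 (-0.08 ± 0.17, adjusted p = 0.841) did not pass. XPNPEP1, an aminopeptidase that removes residues before proline, rose by 0.59 ± 0.08 (adjusted p = 0.00136), and the dipeptidase CNDP2 rose by 0.34 ± 0.08 (adjusted p = 0.0302). The CNDP2 call did not hold when vehicle array 1 or 2 or any 1 androgen array was omitted, nor under either rescaling of the arrays (adjusted p = 0.0504 to 0.115). Without vehicle array 3, 1 gene of the list fell with androgen and 1 rose with celastrol, and between 0 and 2 fell with celastrol over the alternatives. The membrane peptidase MME stayed at -0.11 ± 0.09 (adjusted p = 0.557).

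LIFR is the receptor chain for leukaemia inhibitory factor, which signals through a partner chain, IL6ST (gp130), to JAK kinases and STAT3. Its intensity was 33.0, 25.5 and 31.9 on the vehicle arrays, below that lower quartile of 36.4, 121, 119 and 111 on the androgen arrays, and 45.7, 60.7 and 62.4 on the combined arrays. Again the 3 groups did not overlap and the combined arrays stood between the others. The rise was 1.97 ± 0.14, the change with celastrol was -1.07 ± 0.14, and the combined group remained 0.90 ± 0.14 above vehicle. The share lost, 54.4% ± 6.3, was the smallest of the 6 genes by the probe sets that stand for them. The second probe set of C1orf116 lost less, at 39.5% ± 5.7. On the linear scale the LIFR share was 69.9%, and with a pseudocount of 50 it was 61.8%. RefSeq lists 3 starts for LIFR on the minus strand of chromosome 5 (gene at chr5:38474668-38608403), with 51, 9 and 2 CG pairs in their windows. The window of the middle start is printed because it holds AGAACA at position -8. Its capitals also mark a forkhead match (TGTTTAC, read as GTAAACA) at position 23 and 2 overlapping TATAAA matches, on opposite strands, at -202 and -200:
LIFR promoter, chr5:38557418-38557717, minus strand: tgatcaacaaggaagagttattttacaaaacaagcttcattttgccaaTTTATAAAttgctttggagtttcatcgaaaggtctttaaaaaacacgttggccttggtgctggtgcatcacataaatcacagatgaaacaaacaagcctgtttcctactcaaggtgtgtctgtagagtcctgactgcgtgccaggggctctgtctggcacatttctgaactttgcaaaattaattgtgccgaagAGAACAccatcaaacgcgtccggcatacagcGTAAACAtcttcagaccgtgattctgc

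Of the 27 measured genes of LIFR signalling, 4 rose and 2 fell with androgen, against 7.17% and 5.84% of all genes. With celastrol 4 rose and 1 fell, against 9.0% and 7.24% of all genes, and the median change was 0.02 in both comparisons. IL6ST, the signalling partner of LIFR, moved opposite to it: it changed by -0.49 ± 0.08 with androgen (adjusted p = 0.00467) and by 0.51 ± 0.08 with celastrol (adjusted p = 0.00355). Its means were 2191 ± 132.7, 1561 ± 48.6 and 2227 ± 150 (SD, n = 3) in vehicle, androgen and combined cultures. With each array's median subtracted, the fall of IL6ST with androgen did not pass (adjusted p = 0.0688). SOCS2, a feedback inhibitor of cytokine receptors, rose by 3.12 ± 0.17 (adjusted p = 6.32e-06) and then changed by -1.32 ± 0.17 (adjusted p = 0.00103), from 103 ± 27.5 to 875 ± 18.3 and back to 351 ± 12.2. The kinase JAK2 changed by -0.60 ± 0.11 with androgen (adjusted p = 0.00725) and by -0.05 ± 0.11 with celastrol (adjusted p = 0.831). With celastrol the interleukin 6 receptor IL6R rose by 1.21 ± 0.18 (adjusted p = 0.00197) and the transcription factor CEBPB by 0.91 ± 0.08 (adjusted p = 0.000124). The phosphatase PTPN11 (-0.11 ± 0.08, adjusted p = 0.497) did not pass with androgen. The 4 rises with androgen became 2 with the replicate block and when vehicle array 1 or 2, any 1 androgen array, or combined array 3 was omitted. The count of falls was 4 without vehicle array 3 and 1 with each array's median subtracted. The 1 fall with celastrol became 2 in 5 alternatives, among them that without vehicle array 3.

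TM4SF1 spans the membrane several times and associates with tetraspanins and integrins at the cell surface. Its intensity was 67.7, 59.1 and 53.7 with vehicle, 181, 211 and 189 with androgen, and 29.5, 50.9 and 51.8 with both agents. Here the combined arrays lay wholly below the vehicle arrays, the only such case among the 6 genes, and over all genes 17.1% did so. The rise was 1.69 ± 0.21 and the change with celastrol -2.18 ± 0.21, which left the combined group at -0.49 ± 0.21 relative to vehicle. The share lost was 128.7% ± 14.3, and 113.0% to 137.0% when 1 array at a time was left out. The gap to vehicle narrowed to -0.22 ± 0.12 when combined array 1, with the lowest value, was omitted. Of the 3 further probe sets, 209387_s_at followed the same course, with means of 36.9 ± 4.73, 77.0 ± 17.5 and 32.6 ± 1.91 (SD, n = 3). Probe set 215034_s_at gave 61.0, 47.3 and 132.7 on the vehicle arrays, so that vehicle array 3 lay among the androgen values of 103, 112 and 156, while its combined values of 53.5, 42.9 and 49.1 lay below them. Probe set 215033_at showed no such course, with means of 34.4, 29.6 and 27.8. TM4SF1 lies on the minus strand at chr3:149369022-149377649. Its promoter window has 4 CG pairs and is printed with a GC box (GGGCGG, position -130), a CCAAT box (-76) and the forkhead variant TGTTTGC just inside the transcript (5) in capitals:
TM4SF1 promoter, chr3:149377600-149377899, minus strand: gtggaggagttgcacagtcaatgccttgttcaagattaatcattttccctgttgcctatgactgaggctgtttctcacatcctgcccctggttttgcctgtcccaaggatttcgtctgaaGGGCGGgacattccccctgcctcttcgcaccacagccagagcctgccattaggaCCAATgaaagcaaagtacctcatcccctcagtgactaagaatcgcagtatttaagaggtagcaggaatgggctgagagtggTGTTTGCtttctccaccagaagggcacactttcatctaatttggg

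None of the 3 measured L6 paralogues passed in either comparison. TM4SF4, which neighbours TM4SF1 on chromosome 3, changed by 0.12 ± 0.12 with androgen (adjusted p = 0.609), TM4SF5 by 0.07 ± 0.17 (adjusted p = 0.864) and TM4SF20 by 0.01 ± 0.12 (adjusted p = 0.979). With celastrol their adjusted p-values were 0.681 to 0.883. Of 22 tetraspanins and partners, 1 rose and 2 fell with androgen, against 7.17% and 5.84% of all genes. With celastrol 5 rose and 2 fell, against 9.0% and 7.24% of all genes. The list's median changes were -0.11 and 0.00. TSPAN3 moved against TM4SF1, at -0.80 ± 0.11 with androgen (adjusted p = 0.00115) and 0.61 ± 0.11 with celastrol (adjusted p = 0.00500). TSPAN6 fell with celastrol by 0.85 on the log2 scale (adjusted p = 0.00622) and TSPAN7 rose by 0.78 ± 0.17 (adjusted p = 0.0123). The TSPAN7 call did not hold with androgen array 3 omitted (adjusted p = 0.0526). The integrin chain ITGB1 (-0.24 ± 0.09 with celastrol, adjusted p = 0.111) did not pass, but did with vehicle array 3 omitted (adjusted p = 0.0346) and with an intensity trend (adjusted p = 0.0226). The small counts of this list moved with single arrays: between 0 and 2 genes rose and between 1 and 3 fell with androgen over the alternatives. With celastrol 3 genes rose when androgen array 3 was omitted, and 4 fell when vehicle array 3 was omitted or an intensity trend was fitted. With androgen no gene rose under the replicate block or without androgen array 2 or 3, and 1 fell under the block, without vehicle array 1 or 3, without androgen array 2 or 3, without combined array 2, and with array medians subtracted.

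SPOCK1, or testican-1, is a secreted proteoglycan of the SPARC family that is known to influence extracellular proteases. Its intensity was 54.5, 38.5 and 69.6 with vehicle, 236, 235 and 245 with androgen, and 39.5, 55.6 and 62.6 with both agents. The vehicle and combined arrays overlapped fully, and their means of 54.2 ± 15.6 and 52.6 ± 11.9 (SD, n = 3) differed by less than their spread. The rise was 2.18 ± 0.23, or 4.54-fold, the change with celastrol -2.21 ± 0.23, and the remaining difference from vehicle -0.03 ± 0.23. The share lost was 101.3% ± 10.4, and 92.5% to 113.1% with 1 array left out. SPOCK1 has 1 probe set on the array and lies at chr5:136975298-137499326.

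Of the 5 measured relatives of SPOCK1, none passed with androgen. SPOCK2 (0.01 ± 0.07, adjusted p = 0.957) and SPOCK3 (-0.10 ± 0.13, adjusted p = 0.743) stayed near their vehicle levels. SPARC (0.12 ± 0.17, adjusted p = 0.745) and SPARCL1 (-0.13 ± 0.14, adjusted p = 0.651) did not pass either. The follistatin-like FSTL1 changed by -1.32 ± 0.10 with celastrol (adjusted p = 8.89e-05), from 226 ± 9.39 to 91.2 ± 8.995 (SD, n = 3), after -0.17 ± 0.10 with androgen (adjusted p = 0.406). Among 10 metalloproteinases, cathepsins and inhibitors that testicans are studied with, 1 rose and 2 fell with androgen, against 7.17% and 5.84% of all genes. With celastrol 3 rose and 1 fell, against 9.0% and 7.24% of all genes. The list's median changes were -0.12 and 0.18. The membrane metalloproteinase MMP15 followed the course of SPOCK1 at a lower amplitude, at 0.75 ± 0.17 (adjusted p = 0.0209) and -0.63 ± 0.17 (adjusted p = 0.0404). The metalloproteinase inhibitor TIMP2 went the other way, at -0.70 ± 0.12 (adjusted p = 0.00571) and 0.50 ± 0.12 (adjusted p = 0.0264), as did the protease CTSB, at -0.36 ± 0.08 (adjusted p = 0.0149) and 0.51 ± 0.08 (adjusted p = 0.00247). Several of these calls did not hold with 1 array left out, which also leaves fewer arrays in its group. The fall of MMP15 with celastrol did not pass when vehicle array 1, androgen array 1 or 2, or any 1 combined array was omitted, and its rise did not pass with androgen array 1 or 2 omitted. The rise of TIMP2 did not pass with any 1 androgen array or combined array 2 or 3 omitted. The fall of CTSB did not pass with vehicle array 1 or androgen array 2 or 3 omitted, with array medians subtracted, or with probe sets averaged. Only 1 gene of the list rose with celastrol when androgen array 1 or combined array 3 was omitted.

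C1orf116 had the smallest standard error of the 6 genes. Its intensity was 1133, 1163 and 1248 with vehicle, 3574, 3329 and 3597 with androgen, and 1041, 1010 and 1249 with both agents. Vehicle and combined arrays overlapped, with means of 1181 ± 59.8 and 1100 ± 130 (SD, n = 3), and the androgen level was 2.96-fold above the first and 3.19-fold above the second. The rise was 1.57 ± 0.10, the change with celastrol -1.68 ± 0.10, and the difference left from vehicle -0.11 ± 0.10, a loss of 106.9% ± 6.5. The second probe set, 219856_at, gave a different picture of the same gene. It rose from 226, 247 and 215 to 519, 556 and 561 and came back only to 382, 386 and 394, with no overlap of any groups. There the changes were 1.25 ± 0.08 and -0.49 ± 0.08, the combined group stayed 0.76 ± 0.08 above vehicle, and the share lost was 39.5% ± 5.7. Both probe sets are annotated with this gene alone, and whether they detect different transcripts of it was not tested. The full return to the vehicle level thus held for 1 of the 2 probe sets of this gene. C1orf116 lies on the minus strand at chr1:207018522-207032756, and its promoter window, with 1 CG pair, is printed with an AP-1 match (TGAGTCA) at position -6 in capitals:
C1orf116 promoter, chr1:207032707-207033006, minus strand: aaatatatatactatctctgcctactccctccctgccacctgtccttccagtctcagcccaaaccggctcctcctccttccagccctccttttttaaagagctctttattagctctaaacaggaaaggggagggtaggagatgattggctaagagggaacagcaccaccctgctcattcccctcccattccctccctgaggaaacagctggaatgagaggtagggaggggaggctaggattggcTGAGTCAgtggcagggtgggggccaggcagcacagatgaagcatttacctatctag

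PART1 had the smallest amplitude. Its intensity was 97.3, 105 and 91.5 with vehicle, 167, 178 and 182 with androgen, and 79.4, 102 and 110 with both agents. Vehicle and combined arrays overlapped, at 97.9 ± 6.75 and 97.0 ± 15.7 (SD, n = 3). The rise was 0.85 ± 0.12, or 1.80-fold, the change with celastrol -0.87 ± 0.12, and the share lost 102.9% ± 14.9, with 86.6% to 114.1% when 1 array was left out. Probe set 205834_s_at moved less, with means of 49.6 ± 3.39, 61.5 ± 4.79 and 40.3 ± 11.2 (SD, n = 3). There the rise was 0.31 ± 0.19 and the share lost 209.5% ± 109.7. Probe set 215972_at did not separate the groups, with means of 53.2, 46.7 and 43.3. The share of 102.9% thus rests on the probe set that stands for the gene. PART1 lies on the plus strand at chr5:60487713-60547657 and overlaps PDE4D, a cyclic AMP phosphodiesterase gene on the minus strand. PDE4D itself did not pass in either comparison (-0.39 ± 0.29, adjusted p = 0.498, and -0.26 ± 0.29, adjusted p = 0.647). How far the probe sets keep the strands apart is not given in the sources used here. The RefSeq start used for the PART1 window lies inside the gene coordinates above. Most of the window, with the STAT match marked in it, thus falls within the gene's span. The window of PART1, with 2 CG pairs, is printed with TTTATGG (read as CCATAAA, position -250), a motif of the HOXB13 type, and TTCTTAGAA (position -153), which fits the STAT pattern TTCNNNGAA, in capitals:
PART1 promoter, chr5:60487682-60487981, plus strand: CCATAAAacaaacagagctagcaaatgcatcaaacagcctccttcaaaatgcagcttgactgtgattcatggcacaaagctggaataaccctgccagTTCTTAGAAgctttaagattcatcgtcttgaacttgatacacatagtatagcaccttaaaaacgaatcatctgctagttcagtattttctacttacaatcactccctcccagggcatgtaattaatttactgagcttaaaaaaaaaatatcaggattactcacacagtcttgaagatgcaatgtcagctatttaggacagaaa

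**Figure D2:**
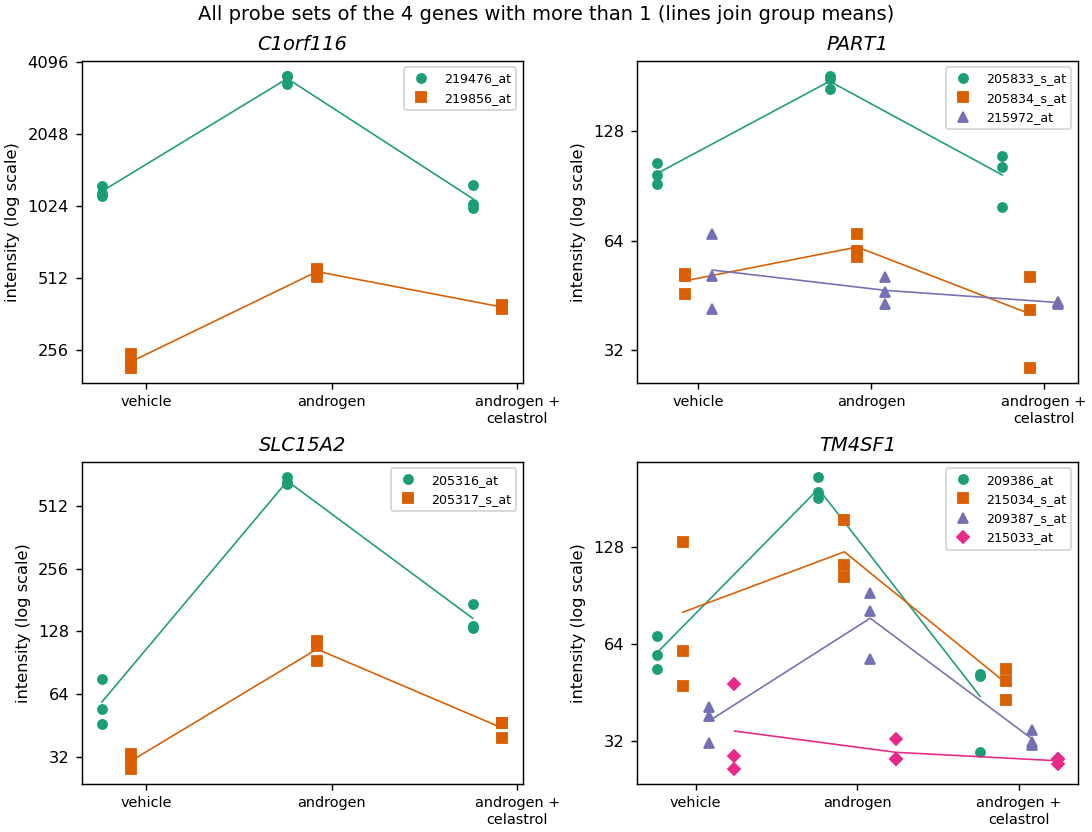
Intensity (log scale) of every probe set of the 4 genes with more than 1, on each array of the 3 groups; lines join the group means. Probe set 219856_at of C1orf116 stays above its vehicle values with both agents while 219476_at returns to them, and 215972_at of PART1 and 215033_at of TM4SF1 do not follow the others.

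RefSeq promoter windows of GRCh38.p14 were given for 5 of the 6 genes, through 7 starts. Of these starts 3 are of LIFR. Except for the LIFR start with 51, they held 0 to 9 CG pairs. The median was 22.0 over 14283 windows of measured genes and 27.0 over 310 windows of genes raised at least 2-fold by androgen. Windows with 4 or fewer CG pairs are not rare, at 29.6% of all windows, 15.4% of those of measured genes and 19.7% of those of raised genes. AGAACA was found in windows of LIFR and SLC15A2 and occurs in 14.8% of all 35116 windows and in 9.35% of those of the raised genes. An inverted repeat of AGAACA with a spacer of 3 bases, the full steroid receptor site, occurred in none of the members' windows and in 1 window overall. In all, 15 motifs were searched on both strands. Those found in 1 to 3 members were TGTTTAC (3.42% of all windows), TGTTTGC (3.89%), TATAAA (11.5%), GGGCGG (45.0%), CCAAT (34.6%), TGAGTCA (4.95%), TTCNNNGAA (7.66%) and TTTATGG (2.54%). No window of the members held TTCCNGGAA (1.15% of all windows), the heat shock pattern GAANNTTC (6.77%), the E-box CACGTG (7.26%), the GATA motif AGATAAG (2.68%) or the homeobox motif CCATTAA (2.02%). The STAT patterns TTCNNNGAA and TTCCNGGAA overlap by design. No motif was shared by more than 3 of the 5 genes.

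By position, 3 of the 6 genes (LIFR, PART1 and SPOCK1) lie on chromosome 5, which holds 4.22% of the measured genes and 7.39% of the genes raised at least 2-fold, and SLC15A2 and TM4SF1 lie on chromosome 3 (5.55% and 7.39%). The 3 genes of chromosome 5 are far apart, with other measured genes between them. The 2 nearest measured genes on each side were examined for every member, 24 in all. With androgen 5 of the 24 rose and 3 fell, and with celastrol none rose and 4 fell, against 7.17% up and 5.84% down, and 9.0% up and 7.24% down, of all genes. EAF2, an elongation factor partner whose gene ends 7.9 kb before SLC15A2, rose from 217 ± 64.6 to 2716 ± 98.3 and was at 1159 ± 97.5 with both agents (SD, n = 3). Its changes were 3.69 ± 0.19 (adjusted p = 4.65e-06) and -1.23 ± 0.19 (adjusted p = 0.00245), beside 3.55 ± 0.18 and -2.20 ± 0.18 for SLC15A2, and the difference between the genes was not tested. IQCB1, the next gene, rose by 0.67 ± 0.10 (adjusted p = 0.00152) and did not pass with celastrol (-0.08 ± 0.10, adjusted p = 0.677). PFKFB2, a regulator of glycolysis whose gene lies 1.7 kb from C1orf116, rose by 1.21 ± 0.13 (adjusted p = 0.000326) and changed by -0.51 ± 0.13 with celastrol (adjusted p = 0.0268). That second call did not hold with the replicate block, with androgen array 1 or 3 or combined array 1 or 2 omitted, or with probe sets averaged (adjusted p = 0.0636 to 0.924). YOD1, whose gene lies within the span of PFKFB2 (0.51 ± 0.12, adjusted p = 0.0236), and WWTR1 near TM4SF1 (0.60 ± 0.13, adjusted p = 0.0147) also rose. Neither passed with androgen array 1 or 2 omitted (adjusted p = 0.0624 to 0.0966). Nor did YOD1 pass without vehicle array 2 or with an intensity trend, nor WWTR1 without vehicle array 1. Next to LIFR lies OSMR, the related oncostatin M receptor, which did not pass (0.18 ± 0.19, adjusted p = 0.661). HLTF near TM4SF1 fell with celastrol by 0.78 on the log2 scale (adjusted p = 0.000658) after a smaller change with androgen (-0.38 ± 0.09, adjusted p = 0.0246), which did not pass with vehicle array 1 or 2 or any 1 androgen array omitted or with array medians subtracted.

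**Figure D3:**
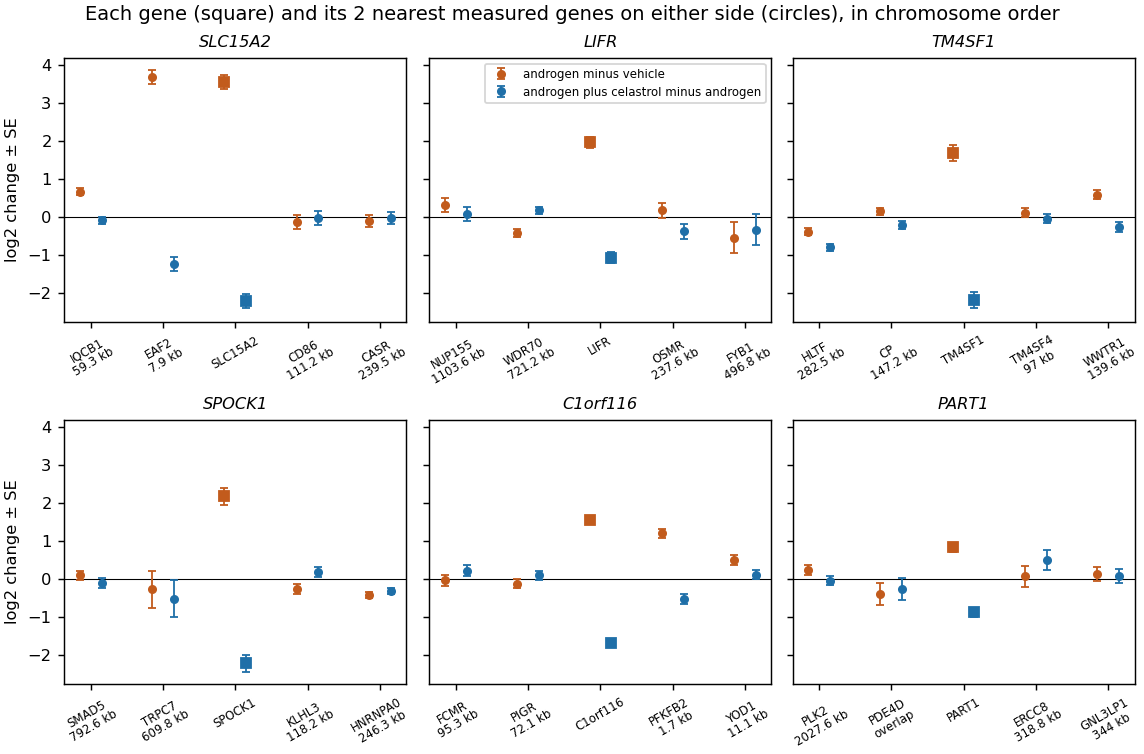
Log2 change with its standard error (vertical axis) of each of the 6 genes (square) and of the 2 nearest measured genes on either side (circles), with the gap to the member in kb under each name; orange is androgen minus vehicle and blue is androgen plus celastrol minus androgen. EAF2 beside SLC15A2 and PFKFB2 beside C1orf116 rise with their neighbour, while the genes around SPOCK1, PART1 and LIFR show no rise past the threshold.

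The name under which the genes were grouped, most reversed by celastrol, did not hold for all of them. In all, 230 genes (1.89% of those tested) were raised at least 2-fold by androgen with an adjusted p under 0.05. Over these the median loss was 30.8%, with quartiles of 8.0% and 57.2%, and 8 lost 100% or more. TM4SF1 was 4th, C1orf116 7th and SPOCK1 8th of the 230 by share lost. The rank of C1orf116 rests on the probe set that stands for it. Its second probe set lost 39.5%, and with probe sets averaged the loss was 77.0%. SLC15A2 was 49th and LIFR 61st by share lost, and PART1 is outside the 230 because it rose less than 2-fold. Ordered by the size of the fall instead, SPOCK1 was 2nd, SLC15A2 3rd, TM4SF1 4th, C1orf116 15th and LIFR 42nd. UGT2B28 stood first in both orders, with a loss of 160.1%. Just after LIFR came PTPN21 (53.7%), NAT1 (53.6%) and ZNF432 (52.8%) by share, and ATAD2 (-1.06 ± 0.12), AKAP12 (-1.06 ± 0.12) and RIPOR2 (-1.05 ± 0.20) by fall. In a list of 35 classical androgen-induced genes, 30 rose and none fell, against 7.17% and 5.84% of all genes. The list was chosen as androgen-induced, with earlier results of these data known, so nothing is read from that count. The median loss of the listed genes that rose was 30.2%, 5 lost 50% or more and none lost 100%. KLK2, which rose by 4.98 ± 0.26, lost 30.4%, FKBP5 30.5% and GNMT 42.0%.

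**Figure D4:**
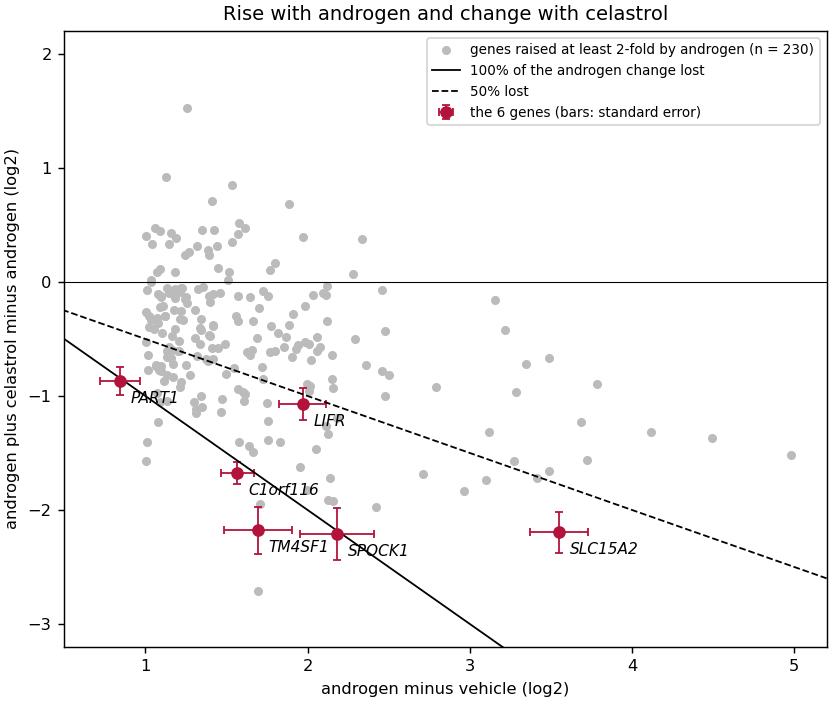
Change with celastrol against rise with androgen, both in log2, for the 230 genes raised at least 2-fold (grey) and the 6 genes (red, with standard errors); the lines mark losses of 100% and 50%. SPOCK1, PART1 and C1orf116 lie at the full line, TM4SF1 below it, and SLC15A2 and LIFR near the broken line.

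By the probe sets that stand for them, the members fell into 2 courses. The second probe set of C1orf116, 219856_at, is not among these and stayed 0.76 ± 0.08 above vehicle. The courses describe the same 9 arrays that chose the members. Pearson's correlation of log2 values over the 9 arrays was 0.98 between SLC15A2 and LIFR, which kept part of their rise, and 0.95 to 0.98 among C1orf116, PART1, SPOCK1 and TM4SF1, which did not. Between the courses it was 0.77 to 0.90. These arrays share groups and normalization, and any gene that is high in the same 3 arrays correlates strongly, so that 23 to 73 genes exceeded 0.95 with each member. The genes most like SLC15A2 were ATAD2, GLUD1 and GUCY1A1 (each 0.99), and those most like LIFR were EML1 (0.99), CHD7 (0.99) and PPP1CB (0.98). GLUD1, mitochondrial glutamate dehydrogenase, went from 1976 ± 31.1 to 4783 ± 155 and back to 2726 ± 156 (SD, n = 3). Most like C1orf116 were CCDC86 (0.99), PAPSS1 (0.99) and TSC22D1 (0.98), and most like SPOCK1 were INPP4B (0.99), SLC25A37 (0.98) and C1orf116 itself (0.98). INPP4B, a phosphoinositide phosphatase, went from 57.9 ± 15.3 to 227 ± 32.1 and back to 64.6 ± 12.5. Most like PART1 were IQGAP2, MERTK and CRISPLD2 (each 0.98), and most like TM4SF1 were CRISPLD2, PIAS1 and AKAP13 (each 0.98). CRISPLD2, which stands in both sets, had means of 141 ± 21.4, 456 ± 18.5 and 119 ± 18.6.

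Of 8 measured cofactors, pioneer factors and chaperones of steroid receptors, none rose and 2 fell with androgen, against 7.17% and 5.84% of all genes, and 2 rose and none fell with celastrol, against 9.0% and 7.24%. The median changes of the list were -0.29 and 0.02. The coactivators NCOA2, at -0.77 ± 0.09 (adjusted p = 0.000405) and 0.40 ± 0.09 (adjusted p = 0.0130), and NCOA1, at -0.49 ± 0.09 (adjusted p = 0.00591) and 0.30 ± 0.09 (adjusted p = 0.0473), moved against the 6 genes. The NCOA1 rise did not hold in 10 of 16 alternatives and the NCOA2 rise in 4, and neither passed with androgen array 2 or 3 or combined array 2 omitted. The chaperones HSP90AA1 (0.05 ± 0.07, adjusted p = 0.723) and HSP90AB1 (-0.05 ± 0.08, adjusted p = 0.719) did not pass with celastrol.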

How the data were processed

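Total RNA from 9 LNCaP cultures was labelled as biotinylated cRNA and hybridised to Affymetrix arrays, per the labels' protocols. The authors' table holds linear intensities, made with RMA (background correction, between-array normalization, summary per probe set), per the submitters' processing notes. RMA removes differences in total RNA; its version is not given in the sources used here. For arrays, their number limits the precision, and p-values measure the spread between these cultures, which may be partly technical.

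Of 22215 probe sets, 19724 have 1 gene, 568 several and 1923 none listed in the platform annotation. Symbols were updated by gene ID (19707 matched). Log2 values (pseudocount 0) of 12165 genes were fitted with limma 3.58.1 in R 4.3.3 (eBayes without trend), with Benjamini-Hochberg adjustment across every gene and a threshold of 0.05. The fit was tested on simulated data. The error of a share lost came from the delta method.

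The members and gene lists were chosen with earlier results of these data known. Named genes are the members, neighbours, the 3 genes most like each member, up to 4 called and 2 uncalled genes per list, close paralogues and the genes just after the last member in rank; CRISPLD2, UGT2B28, GLUD1 and INPP4B values were chosen from these after being seen. Same-numbered vehicle and androgen arrays deviated together (correlations over genes of 0.40, 0.37 and 0.63), while correlations involving the combined arrays were -0.29 to 0.21. The fit behind the values above did not pair arrays by number, and the replicate block was run only as an alternative. Alternatives were the replicate block, leaving out each array, median and quantile scaling, a pseudocount of 50, averaged probe sets, a filter on dim genes, an intensity trend, only the 6 arrays compared, and the linear scale.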

Additional observations from a re-analysis of the deposited data

How the results depend on the processing

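No change of a member between androgen and either other group changed sign in any alternative, and 25 of 288 recomputed log2 changes moved by more than the replicate spread. The share of the androgen response lost moved likewise in 4 of 102 recomputations: with the probe sets of a gene averaged it was 77.0% for C1orf116 and 163.7% for PART1, and on the linear scale it was 69.9% for LIFR and 85.5% for SLC15A2. The average for C1orf116 includes its second probe set, 219856_at, with a loss of 39.5%. The average for PART1 includes 205834_s_at and 215972_at. The linear share applies another formula to the same intensities. With the replicate block 1406 genes were called for androgen, 1716 for celastrol over androgen and 2688 for both agents over vehicle, against 1583, 1976 and 2840 without it; among the genes named above the block ended the calls of PFKFB2 and NCOA1 with celastrol and of CEBPB with androgen. Leaving out 1 array gave 1306 (without androgen replicate 2) to 2667 (without vehicle replicate 3) genes for celastrol over androgen.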
